A study of Mus musculus with 10 samples.

Results

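The 9 genes described here, *Cbx2*, *Cbx6*, *Cbx7*, *Cbx8*, *Bmi1*, *Pcgf2*, *Pcgf5*, *Ring1* and *Rnf2*, encode chromobox, PCGF and RING subunits of Polycomb repressive complex 1 (PRC1). They were chosen by name, with earlier results of the diet contrast on these samples known, and are 9 of the 46983 genes counted. Their diet differences are therefore given as a description. The samples were mammary glands of C57BL/6 mice taken at post-natal day 130. Each diet group had 5 mice with 1 library each. The control folic acid (CFA) group received 1 mg folic acid/kg of diet and the high folic acid (HFA) group received 5 mg/kg. The mice were virgin females, and both groups were fed a modified AIN93M diet for 4 weeks followed by the same maintenance diet, so that any diet difference was measured after the supplement had ended. The intact right thoracic fat pad was extracted, which holds adipose and other tissue besides mammary epithelium.

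PRC1 is a chromatin complex that represses transcription. Its catalytic core pairs a RING protein, *Ring1* or *Rnf2*, with a PCGF protein, and attaches a single ubiquitin to histone H2A. The PCGF protein defines the kind of complex. In canonical PRC1, which contains *Bmi1* or *Pcgf2*, a chromobox protein binds the trimethylated histone H3 lysine placed by Polycomb repressive complex 2 (PRC2), whereas variant PRC1 complexes, such as those built on *Pcgf5*, carry other partners in place of the chromobox protein. In the mammary gland *Bmi1* is known as a regulator of stem and progenitor cells and as a repressor of the *Cdkn2a* cell cycle inhibitor locus.

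Start regions of 3 of the genes are shown because *Cbx6* and *Pcgf5* had the clearest diet differences among the genes with a promoter sequence here and *Bmi1* had the highest level. Each runs from 250 bases before to 50 bases after a RefSeq gene start in build GRCm38.p6, is written along the gene's own strand and has in capitals the E-box CACGTG and the E2F cores TTCCCGC and TTGGCGC or their reverse complements. The *Cbx6* window is chr15:79834284-79834583 on the minus strand, the *Bmi1* window is chr2:18676768-18677067 on the plus strand and the *Pcgf5* window, the most upstream of 3 listed starts, is chr19:36348079-36348378 on the plus strand.
Cbx6: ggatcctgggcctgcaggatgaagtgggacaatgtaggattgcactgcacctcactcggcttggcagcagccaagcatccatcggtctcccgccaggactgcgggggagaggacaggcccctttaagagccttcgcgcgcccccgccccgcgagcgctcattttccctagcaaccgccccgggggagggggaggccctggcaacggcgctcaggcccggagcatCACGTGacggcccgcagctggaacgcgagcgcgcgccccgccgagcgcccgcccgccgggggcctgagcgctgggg
Bmi1: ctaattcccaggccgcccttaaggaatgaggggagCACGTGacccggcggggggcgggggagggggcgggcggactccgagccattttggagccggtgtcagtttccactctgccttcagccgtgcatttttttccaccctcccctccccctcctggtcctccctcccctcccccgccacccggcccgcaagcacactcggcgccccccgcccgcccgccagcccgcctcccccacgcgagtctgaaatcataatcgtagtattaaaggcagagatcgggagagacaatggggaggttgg
Pcgf5: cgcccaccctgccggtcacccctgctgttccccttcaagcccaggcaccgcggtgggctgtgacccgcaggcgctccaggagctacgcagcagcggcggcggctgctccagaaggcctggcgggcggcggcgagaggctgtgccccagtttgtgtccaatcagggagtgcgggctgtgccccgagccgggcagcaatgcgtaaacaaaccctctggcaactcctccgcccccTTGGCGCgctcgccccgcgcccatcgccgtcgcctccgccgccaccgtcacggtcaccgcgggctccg
RefSeq start regions were matched for 8 of the 9 genes, with 10 start regions in all. The E-box was present in 4 of these 10, at *Cbx6*, *Bmi1*, *Pcgf2* and *Cbx8*, and in 7.15% of the 32851 mouse promoters of the same length. The E2F cores TTGGCGC and TTCCCGC were each present in 1 *Pcgf5* start region and in 2.45% and 4.60% of all promoters, respectively. The GC box GGGCGG, searched on both strands like every motif, was present in 9 of the 10 and in 35.7% of all promoters, and CCAAT was present in 3 of the 10 and in 37.4%. The start regions were rich in CpG dinucleotides, with 31 in the *Cbx6* window, 23 in the *Bmi1* window and 34 in the *Pcgf5* window shown, against a median of 7 over all promoters. Fewer were counted at *Pcgf2*, with 10, and at a further *Pcgf5* start, with 5. The shares of motifs over all promoters were not matched for CpG content, and 3 of the 10 start regions belong to *Pcgf5*. These motifs were chosen after the expression values were known, and a match is a description of the letters only.

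Between 7672199 and 14829291 reads were counted on genes per library, and every one of the 9 genes had at least 50 reads in each library. Levels are given as CPM, the count of a gene relative to the counts of its library with library sizes scaled by the trimmed mean of M values (TMM). Markers of mammary epithelium, adipocytes and skeletal muscle were detected in every library, but 3 libraries stood apart. Summed B cell markers reached 395 CPM in T1234 and 1056 CPM in T1334, both CFA, and 3050 CPM in the HFA library T2334, against 4.05 to 6.73 CPM in the other 7. T cell markers followed the same libraries, with 198, 468 and 1123 CPM against 8.32 to 22.4 CPM. T1334 and T2334 also had the lowest sums of luminal epithelial markers, 614 and 404 CPM against 1119 to 2236 CPM in the others. T2334 had 832 CPM of skeletal muscle markers against 8198 to 66879 CPM in the others. In whole tissue, fewer cells of a type and less RNA per cell cannot be told apart.

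In the quasi-likelihood test of edgeR, adjusted by Benjamini-Hochberg over all 15610 genes tested, none of the 9 genes was called between HFA and CFA, and no other gene was (0%). At an unadjusted p below 0.05, *Cbx2* and *Cbx6* were lower and *Pcgf5* was higher under HFA, 3 of the 9, where the background over all genes was 7.36%. Nothing can be read from that share, because the genes were chosen with this contrast known. The CPM ranges of the groups overlapped for all 9 genes, and they were apart for 0.993% of all genes. In direction, 5 of the 9 had lower estimates under HFA, and the median of their log2 fold changes was -0.043. Over all genes tested, 40% had lower estimates and the median was 0.064.

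**Figure D1:**
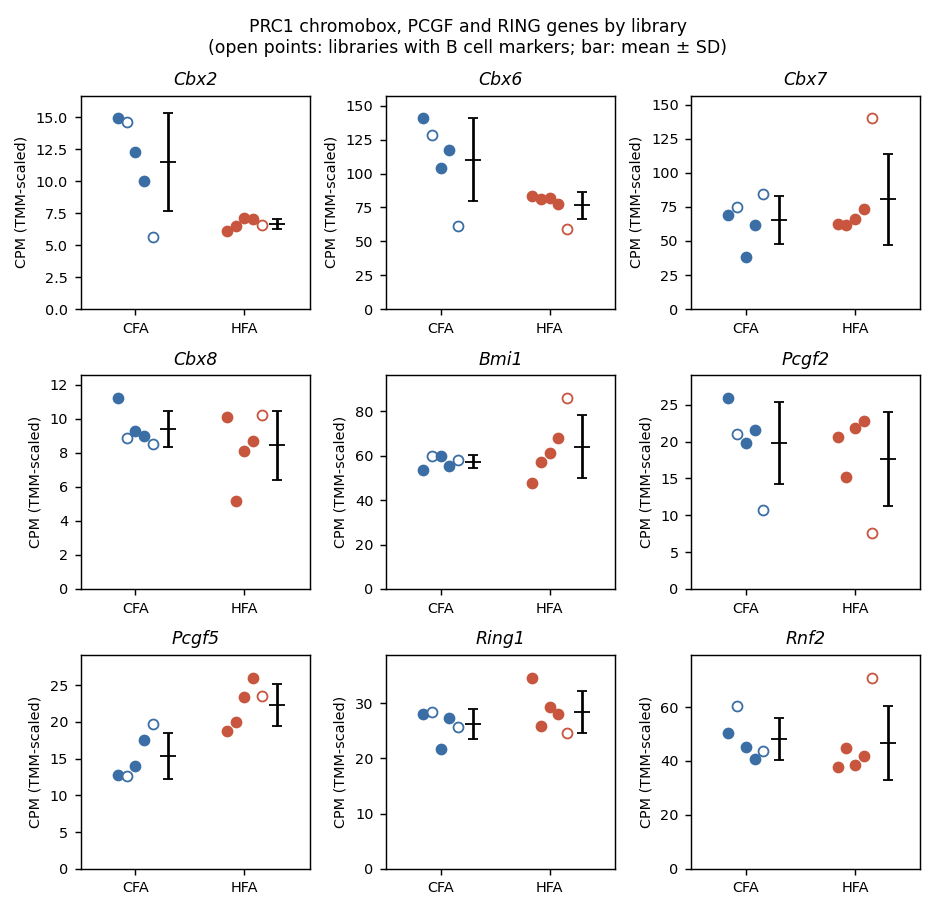
Level of each of the 9 genes by library, in CPM on an axis from 0, with CFA on the left and HFA on the right of each panel. Points are libraries, open points are the 3 libraries with B cell markers, and the bars give the mean ± SD of 5 libraries. The HFA values of *Cbx2* lie between 6.09 and 7.10 CPM, below 4 of the 5 CFA libraries, and those of *Pcgf5* lie above 4 of the 5.

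Gene positions are those of build GRCm38. Among the catalytic RING genes, levels were close between the diets. *Ring1*, ENSMUSG00000024325 on chr17:34020792-34024680, was at 26.2 ± 2.75 CPM under CFA and 28.5 ± 3.84 CPM under HFA (SD, n = 5 each), a log2 fold change of 0.12 (SE 0.13, edgeR adjusted p = 0.845). Its values ran from 21.6 to 28.4 CPM in CFA and from 24.6 to 34.5 CPM in HFA, so that the ranges shared 24.6 to 28.4 CPM, T2214 and T2234 lay above every CFA library and T1314 lay below every HFA library. *Rnf2* (Ring1b), ENSMUSG00000026484 on chr1:151458004-151500955, had the higher median level of the pair per exon length. By that measure *Ring1* was above it only in the HFA library T2214. *Rnf2* was at 50.3, 60.5, 45.3, 40.8 and 43.8 CPM in the CFA libraries T1224, T1234, T1314, T1324 and T1334. In the HFA libraries T2214, T2224, T2234, T2314 and T2334 it was at 37.9, 44.7, 38.3, 41.9 and 70.7 CPM. Thus 4 of the HFA libraries lay below the CFA median of 45.3 CPM, and T2334, the library with the most B and T cell marker RNA, lay above every other library. The *Rnf2* means, 48.2 ± 7.73 and 46.7 ± 13.7 CPM, differed by less than their spread (log2 fold change -0.043, SE 0.19, edgeR adjusted p = 0.963).

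The PCGF genes differed from each other. *Pcgf5*, a subunit of variant PRC1 (ENSMUSG00000024805) on chr19:36348309-36460970, was at 12.8, 12.6, 13.98, 17.6 and 19.8 CPM in the 5 CFA libraries, in the order given above. Under HFA *Pcgf5* was at 18.8, 19.9, 23.4, 26.0 and 23.5 CPM. Every HFA library therefore lay above the CFA libraries except T1334, which stood above the lowest HFA library. The means were 15.4 ± 3.17 and 22.3 ± 2.91 CPM, and the log2 fold change of 0.54 (SE 0.17) had an unadjusted p of 0.00866 and an adjusted p of 0.648 in edgeR. The estimate kept its sign when any single library was left out (0.43 to 0.65).

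*Bmi1* (Pcgf4), ENSMUSG00000026739 on chr2:18677018-18686629, is the PCGF subunit best known in stem cells. It was at 53.8, 59.8, 60.1, 55.4 and 58.1 CPM under CFA, the tightest of the 9 genes in that group relative to its mean. Under HFA *Bmi1* was at 47.8, 57.4, 61.3, 67.9 and 85.9 CPM, so that HFA libraries lay on both sides of the CFA range and T2334 was the highest. The log2 fold change was 0.16 (SE 0.15, edgeR adjusted p = 0.817), and it was -0.015 without T2334. The study, whose model also had a cage term, reported *Bmi1* as nominally downregulated under HFA. *Pcgf2* (Mel18), the close relative of *Bmi1* (ENSMUSG00000018537) on chr11:97688823-97700497, ran from 10.7 to 25.9 CPM in CFA and from 7.57 to 22.9 CPM in HFA. Its lowest value in each group came from T1334 and T2334, the libraries with the lowest epithelial marker sums. The *Pcgf2* means of 19.8 ± 5.59 and 17.6 ± 6.34 CPM differed by less than their spread (log2 fold change -0.17, SE 0.31, edgeR adjusted p = 0.911).

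Among the chromobox genes, which encode the subunits that read methylated histone H3, 3 of 4 had lower estimates under HFA. *Cbx2* (ENSMUSG00000025577) lies on chr11:119022962-119031270 and *Cbx8* (ENSMUSG00000025578) beside it on chr11:119036305-119040969. *Cbx2* was at 14.9, 14.6, 12.3, 10.04 and 5.67 CPM in the CFA libraries. Under HFA it was at 6.09, 6.47, 7.10, 7.04 and 6.56 CPM. The HFA libraries were thus nearly equal, whereas the CFA libraries spread widely and T1334 lay below all of HFA. The means were 11.5 ± 3.80 and 6.65 ± 0.420 CPM, a log2 fold change of -0.79 (SE 0.24, unadjusted p = 0.00863, edgeR adjusted p = 0.648).

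*Cbx6*, identifier ENSMUSG00000089715, lies on chr15:79823896-79834688. Its CFA libraries were at 141, 128, 104, 117 and 61.1 CPM, and its HFA libraries at 83.5, 81.0, 82.0, 77.4 and 58.9 CPM. As for *Cbx2*, T1334 was far below the other CFA libraries, and the other 4 were above all of HFA. The *Cbx6* means of 110 ± 30.6 and 76.6 ± 10.1 CPM gave a log2 fold change of -0.53 (SE 0.21, unadjusted p = 0.0284, edgeR adjusted p = 0.655). Of its exons, 563 bp (5.31%) are shared with *Npcd* on the same strand, so its count may be incomplete there.

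*Cbx7*, ENSMUSG00000053411 on chr15:79915807-79971119 and known as a repressor of the *Cdkn2a* locus, pointed the other way. It was at 69.2, 74.8, 37.9, 61.5 and 84.2 CPM under CFA. Under HFA *Cbx7* was at 62.7, 61.6, 66.3, 73.1 and 140 CPM. T2334 stood above all other libraries and the remaining HFA values fell inside the CFA range. The log2 fold change of 0.30 (SE 0.28, edgeR adjusted p = 0.814) became -0.035 without T2334. *Cbx8* was at 9.37 ± 1.06 CPM under CFA and 8.44 ± 2.03 CPM under HFA (log2 fold change -0.15, SE 0.20, edgeR adjusted p = 0.871). Its CFA values lay between 8.51 and 11.2 CPM, and the HFA libraries T2224, at 5.18 CPM, and T2234, at 8.09 CPM, were lower. The *Cbx8* estimate was -0.016 without T2224 and -0.28 without T2334.

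Without the 3 libraries with B cell markers, a choice made after the values were seen, 3 CFA and 4 HFA libraries remained. *Cbx2* and *Cbx6* then passed the test as lower under HFA, 2 of the 9, where 2.98% of all 15759 genes tested passed. The log2 fold change of *Cbx2* was -0.90 (SE 0.18, edgeR adjusted p = 0.0438) and that of *Cbx6* was -0.58 (SE 0.12, edgeR adjusted p = 0.0461). Both adjusted values lie close to the threshold. *Pcgf5* was at 0.57 (SE 0.17) and did not pass (edgeR adjusted p = 0.0910). In these 7 libraries the ranges of the groups were apart for *Cbx2*, *Cbx6* and *Pcgf5*, 3 of the 9, against 20.6% of all genes. For the other 6 genes the log2 fold changes lay between -0.30 for *Cbx8* and 0.23 for *Cbx7*, and none passed. When all 10 libraries were kept but weighted by quality in limma voom, *Cbx2*, *Cbx6* and *Pcgf5* passed, with adjusted p of 0.0413, 0.0479 and 0.0430, where 6.64% of all genes passed.

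**Figure D2:**
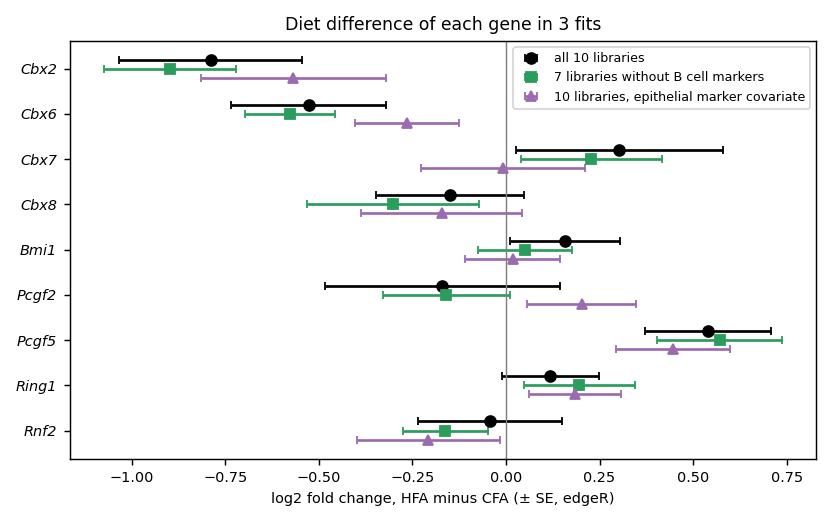
Log2 fold change of each gene, HFA minus CFA, in 3 edgeR fits. Black circles use all 10 libraries, green squares the 7 without B cell markers and purple triangles all 10 with epithelial marker level as a covariate, with bars of ± 1 SE. *Cbx2* and *Cbx6* stay below 0 and *Pcgf5* above 0 in each fit, whereas *Cbx7* and *Pcgf2* change sign with the covariate.

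Epithelial and cell cycle markers also differed between libraries. Summed over their 6 basal epithelial markers, none of which was at 0 in all libraries, the CFA libraries ran from 426 to 1709 CPM and the HFA libraries from 160 to 1016 CPM. The 10 luminal markers summed to 614 to 2236 CPM in CFA and 404 to 1766 CPM in HFA. In the 7 libraries without B cell markers the basal sums were 1172 to 1709 CPM in CFA and 468 to 1016 CPM in HFA, and so were apart, whereas the luminal sums overlapped. *Acta2* alone, the most abundant basal marker, was at 565 to 830 CPM in CFA and 192 to 564 CPM in HFA in these 7 libraries. Basal sums without *Acta2* were not compared. The 9 cycling markers were also apart there, at 166 to 317 CPM in CFA and 38.8 to 83.2 CPM in HFA, but T2334 reached 291 CPM. With the mean level of epithelial markers as a covariate, an alternative also chosen after the values were seen, the log2 fold change was -0.57 (SE 0.25) for *Cbx2*, -0.26 (SE 0.14) for *Cbx6* and 0.45 (SE 0.15) for *Pcgf5*, with edgeR adjusted p of 0.400, 0.427 and 0.390. That of *Pcgf2* became 0.20 (SE 0.15) and that of *Cbx7* -0.0079. The part of the epithelial and cycling markers in these differences was otherwise not tested.

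**Figure D3:**
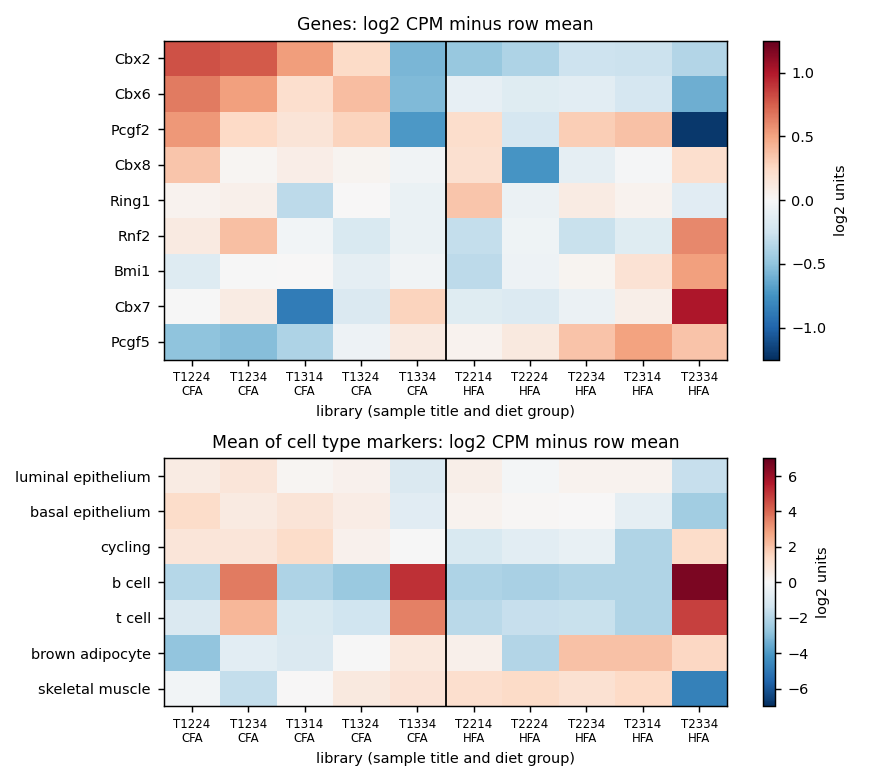
Deviation of each gene (top) and of the mean of each marker list (bottom) from its row mean, in log2 CPM, by library, with CFA left and HFA right of the line. Red is above and blue below the row mean, and the color scales of the panels differ. *Cbx6* and *Pcgf2* are lowest in T1334 and T2334, as the epithelial markers are, *Cbx2* is low in T1334 and at the level of the other HFA libraries in T2334, and *Cbx7*, *Bmi1* and *Rnf2* are highest in T2334.

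The library titles have a second digit of 2 or 3 whose meaning is not given in the sources used here. Within digit 2 the log2 fold change was -1.17 (SE 0.31) for *Cbx2*, -0.71 (SE 0.26) for *Cbx6* and 0.70 (SE 0.21) for *Pcgf5*. Within digit 3 it was -0.46 (SE 0.31), -0.47 (SE 0.26) and 0.53 (SE 0.20), so that each kept its direction. *Cbx7* was at -0.18 within digit 2 and 0.80 within digit 3, and *Rnf2* at -0.46 and 0.38. Only the *Rnf2* difference between the digits had an unadjusted p below 0.05, 1 of the 9 where the background was 8.46% (difference 0.84, SE 0.31, edgeR adjusted p = 0.568). Digit 2 holds the CFA libraries T1224 and T1234 and the HFA libraries T2214, T2224 and T2234. Digit 3 holds T1314, T1324 and T1334 of CFA and T2314 and T2334 of HFA. Of these, T1234, T1334 and T2334 carry B cell markers.

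Across the 10 libraries, the genes whose profiles were most alike were *Bmi1* and *Rnf2*, with a mean absolute difference of 0.16 between centered log2 CPM, followed by *Cbx2* and *Cbx6* with 0.19. *Cbx2* and *Pcgf5* were the farthest apart, at 0.76. Among 12290 genes with a mean of at least 5 CPM, the profiles most like *Cbx2* were those of *Bex3* (0.12) and *Tceal9* (0.12), and those most like *Cbx6* were *Sh3bp4* (0.088) and *St6galnac2* (0.099). *Epb41* (0.079) and *Ndrg3* (0.085) were closest to *Pcgf5*, *Gdi2* (0.032) and *Brcc3* (0.047) to *Bmi1*, and *Six5* (0.11) and *Pwwp2b* (0.12) to *Pcgf2*. *Bahd1* (0.083) and *Crtc2* (0.088) were closest to *Cbx7*, and *Puf60* (0.12) and *9130023H24Rik* (0.12) to *Cbx8*. For the RING genes they were *Stk25* (0.070) and *Yipf3* (0.076) for *Ring1*, and *Atxn3* (0.057) and *Gm15772* (0.058) for *Rnf2*. For *Cbx2*, whose profile varied most, the median difference over all these genes was 0.53. Genes that vary little are close to many others on this measure, and all points share the same libraries.

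Levels of different genes were compared per kilobase of exon. *Bmi1* was the highest, with a median of 14.8 CPM per kb over the 10 libraries (range 12.0 to 21.6), followed by *Rnf2* with 10.7 and *Cbx7* with 10.4. *Ring1* (8.51), *Cbx6* (7.80) and *Pcgf2* (5.91) were intermediate. *Cbx8* (2.43), *Cbx2* (1.66) and *Pcgf5* (1.53) were the lowest. Neighbors in this order were compared over the 10 libraries by a two-sided exact sign-flip permutation test on log2 differences, adjusted over 8 pairs. *Bmi1* was above *Rnf2* in 10 of 10 libraries (log2 difference 0.42 ± 0.22, SD, adjusted p = 0.00781), *Cbx6* above *Pcgf2* (0.75 ± 0.36, adjusted p = 0.00781), *Pcgf2* above *Cbx8* (1.07 ± 0.61, adjusted p = 0.0104) and *Cbx7* above *Ring1* (0.36 ± 0.48, adjusted p = 0.0391). *Rnf2* and *Cbx7*, *Ring1* and *Cbx6*, *Cbx8* and *Cbx2*, and *Cbx2* and *Pcgf5* did not differ beyond their spread (adjusted p from 0.198 to 0.920). The test pooled both diets, so it does not show equal levels within a diet. Per kilobase of all exons, *Ring1* was above *Cbx6* and *Pcgf5* above *Cbx2* in every HFA library. Both orders were the reverse in every CFA library except T1334. Neither split held in full by the longest transcript. *Cbx6* was then above *Ring1* in the HFA library T2224, and *Pcgf5* above *Cbx2* in the CFA library T1324. With the longest transcript in place of all exons, *Pcgf5* moved above *Cbx8* and *Cbx2*, since its exons cover 12629 bp in all but 6443 bp in its longest transcript, and *Ring1* moved above *Cbx7*. *Bmi1* was then above *Rnf2* in 8 of 10 libraries (log2 difference 0.20 ± 0.22, SD, sign-flip adjusted p = 0.0430).

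**Figure D4:**
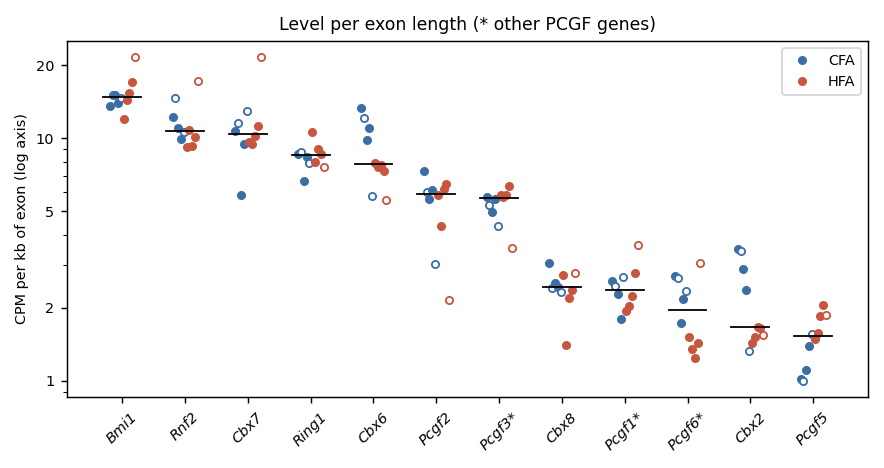
CPM per kb of exon, on a log axis, of the 9 genes and the other PCGF genes (marked by an asterisk). Points are libraries, open for the 3 with B cell markers, and lines are medians over 10 libraries. Medians fall from 14.8 for *Bmi1* to 1.53 for *Pcgf5*.

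Per exon length and as a share of the 4 chromobox genes described here, *Cbx7* made up a median of 45.7% and *Cbx6* 37.2%. Under CFA the shares of *Cbx6* and *Cbx7* averaged 40.1% ± 8.26 and 39.5% ± 11.2 (SD, n = 5). *Cbx6* had the larger share in 4 of the 5 CFA libraries, at 41.0 to 46.6% against 27.7 to 39.1%, and T1334, with B cell markers, had 25.7% of *Cbx6* and 58.0% of *Cbx7*. Under HFA the shares were 31.9% ± 8.25 and 51.4% ± 9.79, and *Cbx7* had the larger share in every library. The order of *Cbx6* and *Cbx7* depends on the gene length used. With the longest transcript in place of all exons, *Cbx7* was above *Cbx6* in 4 of 10 libraries (log2 difference 0.0064 ± 0.78, SD). The *Cbx2* share was 10.4% ± 2.94 under CFA and 6.81% ± 1.14 under HFA. *Bmi1* made up a median of 47.1% of the 6 PCGF genes, and *Pcgf5* made up 3.94% ± 1.03 under CFA and 5.42% ± 0.238 under HFA. *Rnf2* made up a median of 57.4% of the RING pair (46.3 to 69.3% over the libraries).

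The other PCGF genes did not pass the test. *Pcgf6*, of a variant complex active in germ line gene silencing, was at 11.7 ± 1.98 CPM under CFA and 8.66 ± 3.80 CPM under HFA (log2 fold change -0.42, SE 0.27). The *Pcgf6* estimate was -0.78 (SE 0.17) without T2334 and -0.66 (SE 0.19) without the 3 libraries with B cell markers. *Pcgf1* (3.89 and 4.16 CPM) and *Pcgf3* (49.5 and 52.0 CPM) had log2 fold changes of 0.10 and 0.070.

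In the wider Polycomb system, no gene passed at the adjusted threshold in edgeR. Of 8 other core PRC1 genes, which are those 3 with the Polyhomeotic and sex comb on midleg genes, 4 had higher and 4 lower estimates (median log2 fold change 0.033). Only *Scml2*, at -0.99 (SE 0.33), was below an unadjusted p of 0.05. Its level was low, at 2.34 CPM under CFA and 1.19 CPM under HFA. Of 19 partners of variant PRC1, 12 were higher and 7 lower, none of them below that level (median 0.033). Of 12 PRC2 genes tested, 6 were higher and 6 lower (median 0.034). *Ezh1*, the PRC2 methyltransferase of resting tissue, was at 62.0 ± 6.76 CPM under CFA and 80.2 ± 6.02 CPM under HFA, with every HFA library above every CFA library (log2 fold change 0.37, SE 0.11, edgeR adjusted p = 0.648). *Ezh2*, its counterpart in dividing cells, was at 18.9 ± 3.49 and 15.4 ± 8.01 CPM (log2 fold change -0.29, SE 0.30, edgeR adjusted p = 0.836). T2334 had 29.3 CPM of *Ezh2*. The other HFA libraries, at 9.96 to 14.5 CPM, lay below the lowest CFA library at 15.8 CPM. Of 10 genes of the enzymes and cofactors that remove ubiquitin from histone H2A, 8 were higher and 2 lower (median 0.12), and *Asxl3*, at -0.74 (SE 0.29), had an unadjusted p of 0.0265. The level of *Asxl3* was also low, at 2.19 CPM under CFA and 1.30 CPM under HFA. The 3 heterochromatin protein 1 genes, which are chromobox genes outside PRC1, all had lower estimates (median -0.094), and of 3 further chromodomain genes 2 had higher estimates (median 0.024), none of these 6 below an unadjusted p of 0.05.

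Of the targets on which Polycomb repression is best known, 21 of 39 Hox genes were expressed highly enough to test. Of these, 13 had higher and 8 lower estimates (median 0.20), none below an unadjusted p of 0.05. Among the cyclin-dependent kinase inhibitors 3 of 4 were tested, *Cdkn2a* being too low, and *Cdkn1a* (p21), at 18.6 ± 3.55 CPM under CFA and 37.4 ± 5.44 CPM under HFA, had a log2 fold change of 1.01 (SE 0.16) with the groups apart. Its edgeR adjusted p of 0.376 was the smallest over all genes and was shared with *Cybrd1*, *Gadd45g* and *Calca*, which are named for this reason only. *Cdkn2b*, at 3.41 and 2.90 CPM, and *Cdkn1c*, at 43.5 and 28.4 CPM, did not pass. Whether Polycomb repression acts on any of these inhibitors in this tissue was not tested.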

How the data were processed

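Total RNA from 10 mammary glands, 5 per diet, was sequenced by the study with a TruSeq RNA kit that does not mark strand. The deposited values were raw read counts per Ensembl gene, which the authors made with TopHat2 2.0.14, Bowtie2 2.2.5 and HTSeq 0.6.1 on GRCm38. The summary lines of HTSeq, 37.2 to 42.8% of the counted lines, were left out of library sizes. Symbols and positions came from GENCODE M21 (46488 of 46983 identifiers matched). The study had removed a sample of poor read quality and an outlying sample before its final analysis.

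Groups followed the labelled folic acid dose. Counts were filtered with filterByExpr, scaled by TMM and tested with edgeR 4.0.16 (quasi-likelihood, R 4.3.3) with diet as the only term. The study's own model also had a cage term, which the labels used here do not give. With that term the study reported differentially expressed genes, whereas the fit here called none. The common biological coefficient of variation was 0.409. Adjusted p is Benjamini-Hochberg over all 15610 genes, with a threshold of 0.05. Alternatives used DESeq2 1.42.0, limma 3.58.1, other scalings and filters, covariates and left-out libraries. The edgeR script was tested on simulated counts.

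No pair of libraries was a repeat of another. Which mice shared a cage is not given in the sources used here, so p-values measure the spread between these samples. Exons that overlap other genes, 60 to 563 bp in *Cbx6*, *Cbx7*, *Pcgf5* and *Rnf2*, cannot be separated by strand.

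The 9 genes and all lists were chosen with earlier results of these data known. Named besides them are Pcgf1, Pcgf3 and Pcgf6, the genes of each list with an unadjusted p below 0.05 (at most 4 per list), the 2 nearest profiles per gene and for each cell type its most abundant marker. Cdkn2b, Cdkn1c, Ezh2, Cybrd1, Gadd45g and Calca were added after their values were seen. A further gene that the rule would have named is not reported here.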

Additional observations from a re-analysis of the deposited data

Results flagged for a closer look

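In 32 tests, 16 genes in each diet group of 5, the highest or lowest library was compared with the rest by Dixon's ratio, which flags about 1 in 20 groups by chance. The HFA library T2334 was set apart for 5 genes. It had 58.9 CPM of *Cbx6* against 77.4 to 83.5 CPM in the other HFA libraries, 139.9 CPM of *Cbx7* against 61.6 to 73.1 CPM, and 70.7 CPM of *Rnf2* against 37.9 to 44.7 CPM. It also had 15.4 CPM of *Pcgf6* against 6.24 to 7.64 CPM and 33.6 CPM of *Pcgf3* against 54.4 to 60.8 CPM. T2334 is the library with 3050 CPM of B cell markers and 832 CPM of skeletal muscle markers, and the part of either in these values was not tested. The sixth case was T2224, with 90.8 CPM of *Ezh1* against 76.3 to 78.6 CPM in the other HFA libraries.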

How the results depend on the processing

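Of 225 values of the 9 genes' fold changes under alternatives, 209 kept their direction and their side of the threshold, 11 turned in sign and 5 newly passed. The count of genes called, 0 in edgeR's quasi-likelihood test, was 33 with its likelihood ratio test, 60 with DESeq2, 1037 with quality weights, 3 with a B and T cell marker covariate, 469 without T1234, T1334 and T2334, 1 with an epithelial covariate, and 0 to 6 with 1 library left out (6 without T2334). Of the 9 genes, 3 were called with quality weights, 2 without those 3 libraries and 0 to 0 with 1 library left out. Log2 fold changes turned in sign within digit 2 for *Cbx7* (-0.18), *Bmi1* (-0.033) and *Pcgf1* (-0.28), and within digit 3 for *Cbx8* (0.082), *Rnf2* (0.38), *Pcgf6* (0.12) and *Pcgf3* (-0.011). They also turned with the epithelial covariate for *Cbx7* (-0.0079), *Pcgf2* (0.20) and *Pcgf1* (-0.077), with quality weights for *Bmi1* (-0.034) and *Pcgf1* (-0.11), and with the B and T cell covariate for *Pcgf3* (-0.030). With 1 library left out the ranges were -0.035 to 0.41 for *Cbx7*, -0.015 to 0.25 for *Bmi1*, -0.28 to 0.024 for *Rnf2*, -0.11 to 0.18 for *Pcgf1*, -0.28 to -0.016 for *Cbx8*, -0.78 to -0.33 for *Pcgf6*, -0.33 to -0.022 for *Pcgf2* and 0.0081 to 0.15 for *Ring1*. The cause of these changes was not tested. Neighbors in the order of levels that differed numbered 3 to 5 with 1 library left out. *Cdkn1a* newly passed with the likelihood ratio test, DESeq2, quality weights and without the 3 libraries. The middle digits of the titles, which some CFA and HFA libraries share, were not shown to pair the samples (correlations of deviations 0.30, -0.29, 0.11 and 0.41), and a replicate block on them called 0 genes. Counts limit *Cbx2* most, with as few as 50 reads in a library.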

Other observations

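Other markers of the tissue give the setting of these libraries. The most abundant gene of the luminal list was *Krt19*, at 137 to 438 CPM in CFA and 82.5 to 390 CPM in HFA. That of the basal list was *Acta2*, at 175 to 830 and 62.1 to 564 CPM. Among stromal markers *Col3a1* ran from 821 to 4285 CPM in CFA and from 241 to 2736 CPM in HFA, *Pecam1* from 139 to 180 and 144 to 255 CPM, and *Csf1r* from 71.3 to 91.7 and 22.9 to 186 CPM. *Fabp4* ran from 5713 to 7873 and 5989 to 9709 CPM, *Myh4* from 2393 to 14990 and 192 to 19000 CPM, and *Mki67* from 28.1 to 112 and 4.21 to 72.8 CPM. *Ms4a1* and *Lck* reached 473 and 207 CPM in T2334. *Ucp1*, the uncoupling protein of brown fat, ran from 1.51 to 297 CPM in CFA and from 5.35 to 1031 CPM in HFA.

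Over all genes tested, 9372 of 15610 had higher estimates under HFA and 6238 lower ones, with a median log2 fold change of 0.064. Of the marker lists, brown fat was higher in 5 of 5 (median 1.82), skeletal muscle in 9 of 9 (median 0.68), T cell in 8 of 8 (median 0.70), B cell in 3 of 3 tested (median 1.08), macrophage in 7 of 7 (median 0.30), white adipocyte in 8 of 9 (median 0.23) and endothelium in 5 of 6 (median 0.079). In HFA the B and T cell sums were high in T2334 only. T cell markers summed to 1123 CPM in T2334. The other HFA libraries, at 8.32 to 13.5 CPM, lay below every CFA library (14.7 to 468 CPM). Cycling markers were lower in 9 of 9 (median -0.95), basal epithelial markers in 6 of 6 (median -0.96), luminal markers in 8 of 10 (median -0.16) and fibroblast markers in 5 of 6 (median -0.75). None of these genes passed the adjusted threshold in edgeR. At an unadjusted p below 0.05 were *Cox8b* (log2 fold change 1.15) and *Elovl3* (2.31) of the brown fat list, *Plin4* (0.80) of the white adipocyte list, *Epcam* (-0.96) of the luminal list, whose members ran from -0.96 to 1.14, *Krt17* (-1.27) of the basal list and *Cdk1* (-1.21) of the cycling list.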
